A study of Homo sapiens with 9 samples.

Results

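The ERBB receptors and their EGF-like ligands were described in OVCAR3 cells, a line of high-grade serous ovarian carcinoma, with *CTCFL* raised or lowered. The members were listed by name and found in the count matrix by Ensembl identifier. They were 10 of 60660 genes, of which 4 encode receptors (*EGFR*, *ERBB2*, *ERBB3* and *ERBB4*) and 6 encode ligands (*TGFA*, *BTC*, *EPGN*, *AREG*, *HBEGF* and *EREG*). Gene expression was measured by RNA-seq in 9 libraries. Control, CTCFL-OE and CTCFL-KD had 3 biological replicates apiece, and each of these pooled 3 technical replicates. All cells were grown in the same medium, which held 20% serum and insulin at 0.01 mg/ml. CTCFL-OE cells carried 2 µg of the plasmid pCpGfree-vitroHBORIS, which holds the *CTCFL* open reading frame, by transient transfection, and were collected at 48 h. Control cells carried a LacZ plasmid by the same route, according to the study's methods. CTCFL-KD cells had received siRNA in knockdown experiments described earlier. No non-targeting siRNA group was analysed here, so both altered groups are set against the same 3 LacZ libraries, and in CTCFL-KD the effect of lower *CTCFL* and that of a separate experiment cannot be told apart.

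The 4 receptors are tyrosine kinases of the cell surface. The ligands are made as membrane-anchored precursors, are released by metalloproteases such as ADAM17, and bind the receptors, which then pair and signal through RAS to ERK and through PI3K to AKT. ERBB2 has no known ligand and acts as the preferred partner of the others, whereas ERBB3 has a weak kinase and recruits PI3K. In ovarian epithelium and its tumours these receptors take part in growth and survival. CTCFL, also called BORIS, is a germline paralog of the DNA-binding protein CTCF and shares its zinc fingers.

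The ligand genes *EPGN*, *EREG*, *AREG* and *BTC* lie side by side on chromosome 4, within 486 kb from 74308470 to 74794523 of GRCh38. *EGFR* lies on chromosome 7 (55019017 to 55211628), *ERBB2* on 17 (39687914 to 39730426), *ERBB3* on 12 (56076799 to 56103505) and *ERBB4* on 2 (211375717 to 212538841). *TGFA* is on chromosome 2 (70447284 to 70554193) and *HBEGF* on 5 (140332843 to 140346603). The bases just upstream of the starts of the chromosome 4 ligands are shown because these neighbours encode ligands of the same family. Each run holds the 250 bases before the start, 5′ to 3′ on the strand of the gene, from RefSeq (GRCh38.p14). Capitals mark the letters of a searched word. The regions are chr4:74308220-74308469 on the plus strand for *EPGN*, chr4:74364895-74365144 on the plus strand for *EREG*, chr4:74444886-74445135 on the plus strand for *AREG* and chr4:74794524-74794773 on the minus strand for *BTC*.
EPGN: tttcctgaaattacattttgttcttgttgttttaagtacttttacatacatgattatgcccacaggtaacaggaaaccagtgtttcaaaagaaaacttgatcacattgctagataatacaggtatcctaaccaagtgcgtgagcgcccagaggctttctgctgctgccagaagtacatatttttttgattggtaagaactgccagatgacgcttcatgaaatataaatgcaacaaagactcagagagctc
EREG: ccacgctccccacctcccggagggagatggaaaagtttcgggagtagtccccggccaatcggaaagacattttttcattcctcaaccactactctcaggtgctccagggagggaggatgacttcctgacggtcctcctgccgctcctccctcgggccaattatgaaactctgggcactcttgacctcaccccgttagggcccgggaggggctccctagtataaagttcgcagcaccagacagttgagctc
AREG: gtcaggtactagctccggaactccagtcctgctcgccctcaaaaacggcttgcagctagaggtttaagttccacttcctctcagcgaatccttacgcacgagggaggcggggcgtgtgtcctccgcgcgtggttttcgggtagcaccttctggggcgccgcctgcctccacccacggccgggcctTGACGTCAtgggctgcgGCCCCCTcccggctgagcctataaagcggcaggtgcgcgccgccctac
BTC: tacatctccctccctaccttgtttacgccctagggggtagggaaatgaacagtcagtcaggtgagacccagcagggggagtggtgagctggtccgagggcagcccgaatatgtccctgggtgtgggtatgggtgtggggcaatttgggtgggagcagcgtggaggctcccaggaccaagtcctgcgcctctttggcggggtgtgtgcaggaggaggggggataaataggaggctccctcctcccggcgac

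The RefSeq promoter windows reach from 250 bases before to 50 bases after the start. They were matched by symbol for 9 of the 10 members, all but *ERBB3*, and were searched on both strands for the CTCF core words AGGGGGC and AGGTGGC, the AP-1 word TGANTCA and the CRE word TGACGTCA. The *AREG* window held a CRE word 65 to 58 bases and a CTCF core word 48 to 42 bases before the start, which did not overlap each other. The windows of *EPGN*, *EREG* and *BTC* held none of these letters. Of the 34796 distinct promoter windows of this length, 20% held a CTCF core word, 7.73% the AP-1 word and 1.84% the CRE word. Among the other members, *HBEGF* had 2 CTCF core words, *ERBB2* had 1 AP-1 word, and 1 of the 2 windows of *EGFR* had 2 AP-1 words. The *EPGN* window was the poorest in CG pairs of the 4 ligands on chromosome 4, with 4 pairs and a GC content of 37.7%, while the median window had 14 pairs and 58.7%. *AREG* had 27 pairs, and *EREG* and *BTC* had 12 each.

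The libraries held 14332622 to 24490080 counts. Mitochondrial genes took 6.16% to 6.52% of them in Control, 7.4% to 14.9% in CTCFL-OE and 7.8% to 11.8% in CTCFL-KD. The part of this share in the differences from Control was not tested. A count of 0 allows up to 3 counts, or 0.116 to 0.27 CPM depending on the library, a limit that covers counting error only. *CTCFL*, the altered gene, had counts of 6, 9 and 10 in Control. CTCFL-OE had 36, 34 and 72 and CTCFL-KD had 0, 1 and 0, and all libraries matched their labels in direction. CTCFL-KD 1 stood apart from its replicates. Relative to the mean of the other libraries of its group, its levels fell with transcript length (Spearman's rho -0.577 across 15313 genes). The same measure gave 0.518 and 0.545 for CTCFL-KD 2 and 3, whose reference holds CTCFL-KD 1. Values of long genes such as *EGFR* and *ERBB4* are therefore given with and without CTCFL-KD 1. All 15 epithelial ovarian markers were tested and gave summed levels of 6420 to 6530 CPM in Control, 5750 to 6030 in CTCFL-OE and 10900 to 18700 in CTCFL-KD. In CTCFL-KD, 10 of the 15 were higher and 3 were lower past the adjusted p, beside 21.4% and 16.8% of all genes tested. Of 13 fibroblast markers 6 were tested, with summed levels of 31.1 to 36.3 CPM in Control, 27.8 to 50.0 in CTCFL-OE and 39.5 to 45.5 in CTCFL-KD, and *COL6A3* stayed at or under 3 counts in every library. *COL3A1*, which was not tested, had no count in Control or CTCFL-OE and 8, 9 and 8 counts in CTCFL-KD. The collagen gene *COL1A2* had no count in Control and 1, 2 and 0 counts in CTCFL-OE, whereas CTCFL-KD had 156, 239 and 247. *COL3A1* and *COL1A2* were named after their values were seen. The fibroblast markers that passed with higher levels in CTCFL-KD were *COL1A2* and *POSTN*, which had 2, 1 and 5 counts in Control and 9, 18 and 13 in CTCFL-KD. Both entered the test only through the CTCFL-KD libraries, and the median log2 fold change of the 6 markers tested was -0.14. The 7 leukocyte and endothelial markers summed to at most 10.5 CPM, with *CD3E* and *CD68* at or under 3 counts in every library. The part of these markers in the results was not tested.

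In Control cells *EGFR*, *ERBB3*, *ERBB2* and then *BTC* had the highest levels of the family. Levels are in CPM, the counts scaled to library size, and are divided by transcript length where genes are compared. Per kb of transcript, *EGFR* had the highest level, 21.9 ± 1.4 CPM per kb (SD, n = 3 here and throughout), followed by *ERBB3* at 17.2 ± 0.917 and *ERBB2* at 16.5 ± 0.529, whose libraries overlapped each other. *BTC*, encoding betacellulin, was the most abundant ligand at 8.09 ± 0.319. *TGFA*, encoding transforming growth factor alpha, had 3.77 ± 0.282 and overlapped *ERBB4* at 3.4 ± 0.234, both on the same scale. *AREG*, encoding amphiregulin, had 2.08 ± 0.0416 CPM per kb and *HBEGF*, encoding heparin-binding EGF-like growth factor, had 1.15 ± 0.195. *EPGN*, encoding epigen, lay at 0.0901 ± 0.0482 and *EREG*, encoding epiregulin, at 0.0266 ± 0.00547. The order depends on the length used. Per kb of merged exons, a length chosen after seeing the data, *BTC* (8.09 ± 0.319) lay above *ERBB2* (7.3 ± 0.232) in all 3 Control libraries and *ERBB3* had 8.24 ± 0.429, while *EGFR* still led with 13.6 ± 0.874. In CTCFL-KD the order was *ERBB2*, *ERBB3*, *BTC*, *EGFR*, *EPGN*, *TGFA*, *ERBB4*, *AREG*, *HBEGF* and *EREG*. There, the ranges of *ERBB2* and *ERBB3* overlapped, as did those of neighbours from *BTC* through *AREG*. Within libraries, *ERBB2* was above *ERBB3* in 1 of the 3 and *BTC* above *EGFR* in 2, whereas each step from *EGFR* down to *EREG* had the same direction in all 3. Per kb of merged exons the top of this order turned, with *BTC* at 25.3 ± 6.92, *ERBB3* at 20.8 ± 1.0, *ERBB2* at 19.4 ± 1.4 and *EGFR* at 15.1 ± 5.95, and the steps from *EGFR* down held in all 3 libraries again. In CTCFL-OE, *ERBB3*, *EGFR* and *ERBB2* (25.5 ± 5.6, 25.4 ± 4.04 and 22.9 ± 6.71 CPM per kb) overlapped one another, as did neighbours from *ERBB4* (5.09 ± 1.15) through *TGFA* and *AREG* to *HBEGF* (1.7 ± 0.809). Of these steps, *ERBB4* over *TGFA* and *AREG* over *HBEGF* held in all 3 libraries.

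**Figure D1:**
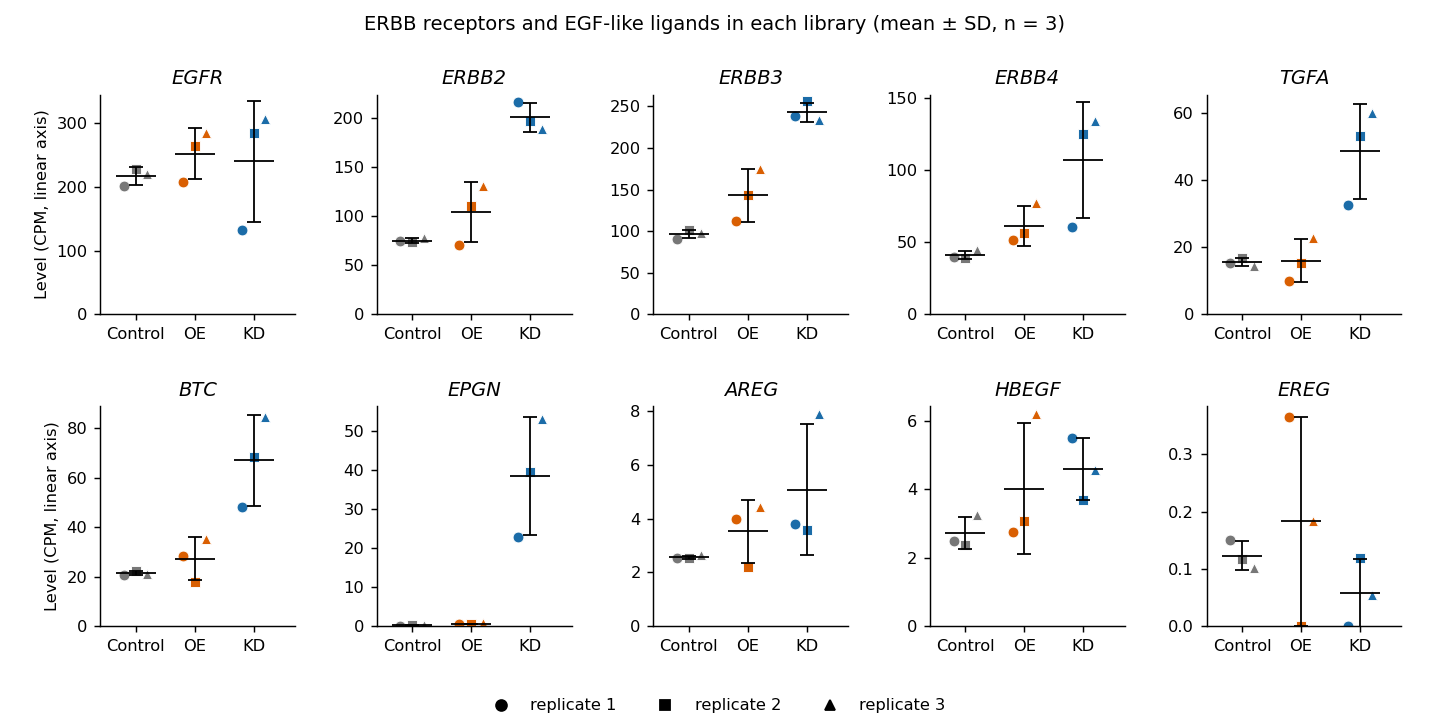
Level of each member in CPM (linear axes from 0, scaled separately per gene) in the 3 libraries of Control, CTCFL-OE (OE) and CTCFL-KD (KD). Symbols mark the replicate, and bars give the mean ± SD (n = 3). *EPGN* lies under 0.7 CPM in all Control and CTCFL-OE libraries and between 22.8 and 53.0 CPM in CTCFL-KD.

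The question of the first comparison with Control was how gene expression differs when *CTCFL* is lowered. In CTCFL-KD, 7 of the 9 members tested passed the adjusted p, all with higher levels, and 21.4% of all 17794 genes tested were higher by the same rule. A differentially expressed gene (DEG) also had a log2 fold change beyond 1. There were 6 such members, *EPGN*, *TGFA*, *BTC*, *ERBB2*, *ERBB4* and *ERBB3*, where 15.3% of all genes tested were DEGs with higher levels. These counts include *EPGN*, which entered the test through the CTCFL-KD libraries. With at least 10 counts in every library *EPGN* was not tested, 6 members passed and 5 were DEGs, all with higher levels, beside 21.7% and 14% of all genes tested by that filter. The median log2 fold change was 1.38 over the members tested and 0.0769 over all genes tested. All 3 CTCFL-KD libraries lay above all 3 Control libraries for 8 of the 9, against 28.7% of all genes tested. In bulk RNA, a change in level per cell and a change in the share of cells that express a gene cannot be told apart.

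The gene for epigen, a ligand of EGFR, gave the largest difference among the members. *EPGN* had 2, 7 and 7 counts in Control and 11, 9 and 11 in CTCFL-OE, whereas CTCFL-KD had 253, 666 and 967. Its level rose from 0.242 ± 0.13 CPM in Control to 38.5 ± 15.1 in CTCFL-KD, with no overlap between the groups. The ratio of the summed counts, scaled to library size, was 167, with an exact 95% interval of 103 to 293 that covers counting error only, not the spread between libraries. Its log2 fold change of 7.27 (SE 0.43, adjusted p = 2.6e-06) belongs to a gene with so few counts in Control and CTCFL-OE that it entered the test through the CTCFL-KD libraries. CTCFL-KD 1 had the lowest of the 3 CTCFL-KD values, and without it the log2 fold change was 7.53 (adjusted p = 7.44e-08).

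The other abundant ligands rose by smaller amounts. *TGFA* levels were 15.2, 16.8 and 14.5 CPM in Control and 32.6, 53.2 and 60.0 in CTCFL-KD, so its lowest CTCFL-KD library lay well above the highest Control library. The log2 fold change of *TGFA* was 1.65 (SE 0.30, adjusted p = 0.00189). *BTC* levels were 20.7, 22.4 and 21.2 CPM in Control and 48.0, 68.4 and 84.6 in CTCFL-KD, with a log2 fold change of 1.64 (SE 0.27, adjusted p = 0.000927). Both genes were again lowest in CTCFL-KD 1 among its group, and without that library the log2 fold changes were 1.87 for *TGFA* and 1.84 for *BTC*.

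*AREG* and *HBEGF* were low and their calls were less firm. *AREG* had 51, 65 and 52 counts in Control and 42, 60 and 144 in CTCFL-KD. In CPM these were 2.55, 2.53 and 2.63 against 3.79, 3.57 and 7.89, and the highest value, in CTCFL-KD 3, was far from its replicates. The log2 fold change of *AREG* was 0.99 (SE 0.35, adjusted p = 0.0437). Without CTCFL-KD 3 it was 0.51 (adjusted p = 0.227), and without Control 1, 2 or 3 the adjusted p was 0.112, 0.118 and 0.107. *HBEGF* had 2.5, 2.37 and 3.24 CPM in Control and 5.5, 3.69 and 4.55 in CTCFL-KD. The groups did not overlap for *HBEGF*, yet its log2 fold change of 0.75 (SE 0.32, adjusted p = 0.089) did not pass. *EREG* was at the limit of detection, and was not tested, with 3, 3 and 2 counts in Control. CTCFL-OE had 8, 0 and 3 and CTCFL-KD had 0, 2 and 1.

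Among the receptors, *ERBB2*, *ERBB3* and *ERBB4* rose and *EGFR* did not pass the test. *ERBB2* levels were 74.4, 73.5 and 78.0 CPM in Control and 217, 197 and 189 in CTCFL-KD, with a log2 fold change of 1.41 (SE 0.22, adjusted p = 0.000704). *ERBB3* levels were 91.0, 101 and 97.6 CPM in Control and 239, 256 and 234 in CTCFL-KD, with a log2 fold change of 1.33 (SE 0.19, adjusted p = 0.000409). Both receptors had closely spaced replicates, CTCFL-KD 1 included, and no overlap between the groups. The level of *ERBB4*, a receptor for neuregulins as well as for betacellulin, was 39.7, 39.3 and 44.4 CPM in Control and 60.9, 125 and 134 in CTCFL-KD. Its log2 fold change was 1.38 (SE 0.28, adjusted p = 0.00345) and 1.66 (adjusted p = 3.1e-05) without CTCFL-KD 1, the lowest library of the group.

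*EGFR* levels were 201, 228 and 221 CPM in Control and 132, 284 and 306 in CTCFL-KD. CTCFL-KD 1 lay below all Control libraries and the other two lay above them, which left a log2 fold change of 0.15 (SE 0.28, adjusted p = 0.698). Without CTCFL-KD 1 it was 0.45 (adjusted p = 0.0284), in a fit where 49.9% of all genes tested passed in either direction, against 38.2% with all libraries. With the length and GC trends of each library removed it was -0.01 (adjusted p = 0.97), so neither a rise nor a stable level of *EGFR* was resolved. The genes whose log2 CPM followed *EGFR* most closely over the 9 libraries were *TANC2* (Pearson's r = 0.99), *ATP11A* (0.988) and *MYO18A* (0.987). In all, 164 of 13688 other protein-coding genes exceeded 0.9 with *EGFR*, and 3 did with *AREG*, namely *PRRG4* (0.921), *INSIG2* (0.909) and *GPR137C* (0.907). These correlations describe libraries that share depth and length trends as well as condition.

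Reads of overlapping genes could bear on 1 receptor. *PGAP3*, a gene for remodelling of lipid anchors on the opposite strand of the *ERBB2* locus, had 164, 243 and 189 counts in Control and 459, 373 and 446 in CTCFL-KD (log2 fold change 1.69, adjusted p = 0.00118). *MIEN1* on the opposite strand had 207 to 211 counts in Control and 174 to 284 in CTCFL-KD (log2 fold change 0.66, adjusted p = 0.139). The strand setting of the counting is not given in the sources used here, so reads shared between these genes and *ERBB2* cannot be told apart. *EGFR-AS1* had at most 6 counts in any library.

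**Figure D2:**
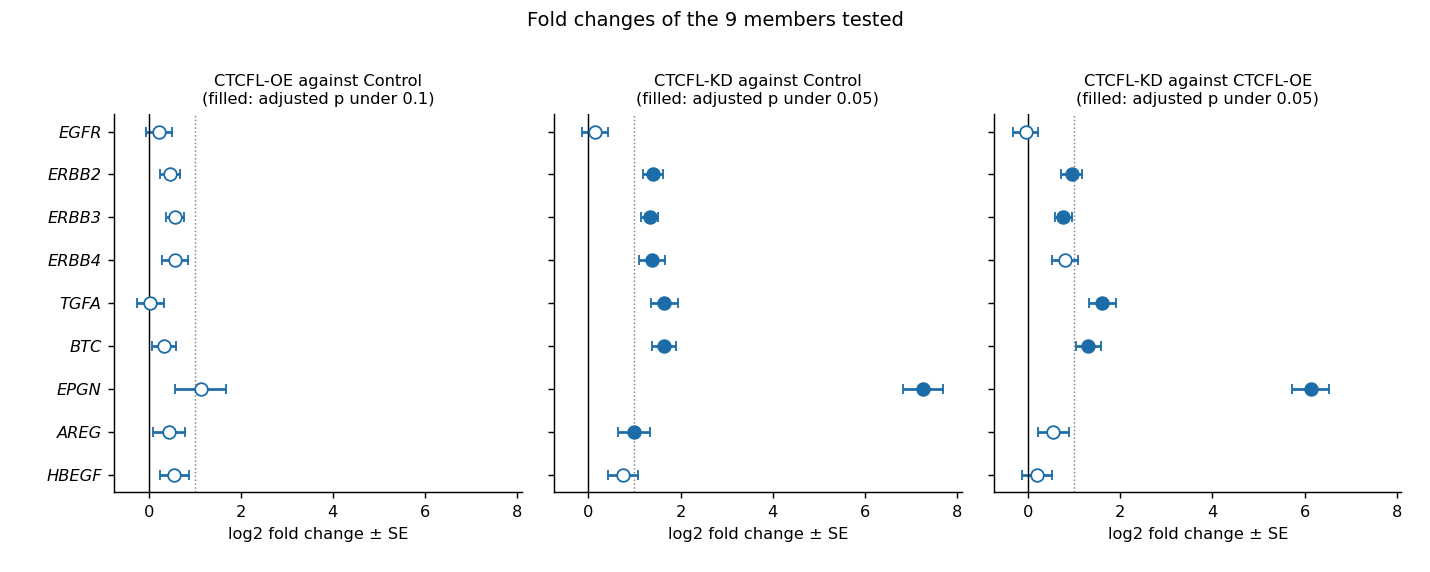
Log2 fold change ± SE (horizontal axis) of the 9 members tested, from edgeR, in CTCFL-OE against Control, CTCFL-KD against Control and CTCFL-KD against CTCFL-OE. Filled points passed the adjusted p named above each panel, and the dotted line marks a log2 fold change of 1. In the middle panel 7 points are filled, and in the left panel none is.

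The second comparison asked the same question with *CTCFL* raised. In CTCFL-OE, 0 of the 9 members tested passed the adjusted p of edgeR, and 3.15% of all genes tested did. At an unadjusted p under 0.05, 1 member passed (*ERBB3*), as did 17.7% of all genes tested. DESeq2 on all 9 libraries called 1 member, also *ERBB3* (adjusted p = 0.0581 against a threshold of 0.1), and 7.62% of all genes. The 9 log2 fold changes were all above 0, with a median of 0.47, against -0.0103 over all genes tested. Without CTCFL-OE 3, *TGFA* was at -0.306 and the others ran from 0.101 (*HBEGF*) to 0.972 (*EPGN*), with *ERBB3* at 0.396 and *ERBB2* at 0.265. All 3 libraries of CTCFL-OE exceeded every Control library for 3 of the 9, *ERBB3*, *ERBB4* and *EPGN*, and 16.3% of all genes tested did so.

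*ERBB3* levels were 112, 143 and 175 CPM in CTCFL-OE (log2 fold change 0.57, SE 0.19, adjusted p = 0.16). *ERBB4* levels were 51.2, 56.1 and 77.3 CPM, a log2 fold change of 0.58 (SE 0.28, adjusted p = 0.305). When only CTCFL-OE and Control libraries were fitted, the adjusted p was 0.0562 for *ERBB3* and 0.0532 for *ERBB4*, and 20.2% of all genes tested passed in that fit. *ERBB2* had 71.0, 111 and 131 CPM and *EGFR* had 207, 264 and 284, both of which overlapped Control.

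*EPGN* levels were 0.502, 0.47 and 0.676 CPM in CTCFL-OE, against 0.1, 0.272 and 0.355 in Control. The log2 fold change of *EPGN* was 1.13 (SE 0.55, adjusted p = 0.308), and its summed counts of 31 and 16 gave a ratio of 2.21 with a 95% interval of 1.17 to 4.32 that covers counting error only. *EPGN* had this test because of its CTCFL-KD counts, and edgeR on the CTCFL-OE and Control libraries alone left it out. The levels of *TGFA* (9.94, 15.3 and 22.7 CPM), *BTC* (28.4, 17.9 and 35.2), *AREG* (3.97, 2.19 and 4.42) and *HBEGF* (2.74, 3.08 and 6.21) in CTCFL-OE all overlapped Control. CTCFL-OE 3 was the highest library of its group for all 9 members tested, and CTCFL-OE 1 the lowest for 6 of them. The share of mitochondrial counts was 14.9% in CTCFL-OE 3, 12.4% in CTCFL-OE 2 and 7.4% in CTCFL-OE 1, and its part in these values was not tested. Without CTCFL-OE 1, *ERBB2* (adjusted p = 0.0416) and *ERBB3* (adjusted p = 0.0403) passed, as did 15.1% of all genes tested.

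Both comparisons with Control share the Control libraries, so the altered groups were also compared directly. Here, 5 of the 9 members tested were higher in CTCFL-KD than in CTCFL-OE past the adjusted p, and 15.3% of all genes tested were. The log2 differences were 6.13 for *EPGN* (SE 0.40, adjusted p = 7.79e-06), 1.61 for *TGFA* (SE 0.30, adjusted p = 0.00308), 1.30 for *BTC* (SE 0.27, adjusted p = 0.00481), 0.94 for *ERBB2* (SE 0.22, adjusted p = 0.0093) and 0.76 for *ERBB3* (SE 0.19, adjusted p = 0.0131). The first 3 were DEGs, *EPGN* among them by way of its CTCFL-KD counts, and 10.6% of all genes tested were DEGs with higher levels in this comparison. The 3 CTCFL-KD libraries lay above all CTCFL-OE libraries for these 5 members, and for 20.3% of all genes tested. *ERBB4* overlapped and had a log2 difference of 0.80 (SE 0.28, adjusted p = 0.0562), or 1.08 (adjusted p = 0.000661) without CTCFL-KD 1 and 0.76 (adjusted p = 0.0381) with the replicate block. *ERBB4* also passed without CTCFL-OE 3 (adjusted p = 0.0481), with DESeq2 on all libraries (0.0467), without a low-count filter (0.012), and with length and GC offsets alone (0.00161) or with the block (0.00122). It did not pass with RLE scaling (0.0657), at least 10 counts in every library (0.0696), or the groups compared only (0.138 in edgeR, 0.114 in DESeq2). Nor did it pass without CTCFL-OE 1 (0.162), CTCFL-OE 2 (0.167), CTCFL-KD 2 (0.152) or CTCFL-KD 3 (0.16). Without CTCFL-OE 2, *ERBB3* did not pass (adjusted p = 0.0529). Differences were -0.06 for *EGFR* (SE 0.28, adjusted p = 0.884), 0.54 for *AREG* (SE 0.34, adjusted p = 0.265) and 0.19 for *HBEGF* (SE 0.32, adjusted p = 0.679).

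The unequal changes gave the CTCFL-KD cells another mix of ligand transcripts. Per kb of transcript, *EPGN* made up 0.59% ± 0.312 of the summed ligand level in Control and 1.11% ± 0.148 in CTCFL-OE. In CTCFL-KD it made up 24.4% ± 2.74, and its lowest library had 21.3%. *BTC* was the main ligand in every group, with a share of 53.2% ± 0.558 in Control and 54.0% ± 5.7 in CTCFL-OE, and 44.2% ± 1.29 under knockdown. The share of *TGFA* was 24.8% ± 1.4 in Control, 20.8% ± 6.79 under overexpression and 20.6% ± 1.52 under knockdown. *AREG* went from 13.7% ± 0.585 in Control to 7.08% ± 1.87 in CTCFL-KD and *HBEGF* from 7.56% ± 1.35 to 3.71% ± 1.85, although the level of neither gene was lower there. The summed ligand level was 15.2 ± 0.488 CPM per kb in Control and 18.9 ± 5.85 in CTCFL-OE, whereas CTCFL-KD had 57.5 ± 17.3. The shares and the sum cover the 6 listed ligands only and leave out EGF and the neuregulins. These shares are descriptions, without a test.

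*EGFR* made up less of the receptor transcripts in CTCFL-KD. Its share of the summed receptor level was 37.1% ± 1.0 in Control and 32.5% ± 2.15 in CTCFL-OE. CTCFL-KD had 19.8% ± 6.63, with 12.2% in CTCFL-KD 1 and up to 24.7% in the others, all below the Control range of 36.2% to 38.2%. *ERBB2* made up 28.0% ± 1.21 in Control and 36.9% ± 6.04 in CTCFL-KD, and *ERBB3* 29.1% ± 0.535 and 36.1% ± 2.98. *ERBB4* stayed the least abundant receptor per kb, with 5.76% ± 0.352 in Control and 7.2% ± 2.26 in CTCFL-KD. The summed receptor level was 59.0 ± 2.49 CPM per kb in Control and 78.9 ± 17.3 in CTCFL-OE, whereas CTCFL-KD had 120 ± 10.4. Per kb of merged exons it was 32.3 ± 1.42 in Control and 42.9 ± 9.07 in CTCFL-OE, against 63.5 ± 7.88 under knockdown.

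**Figure D3:**
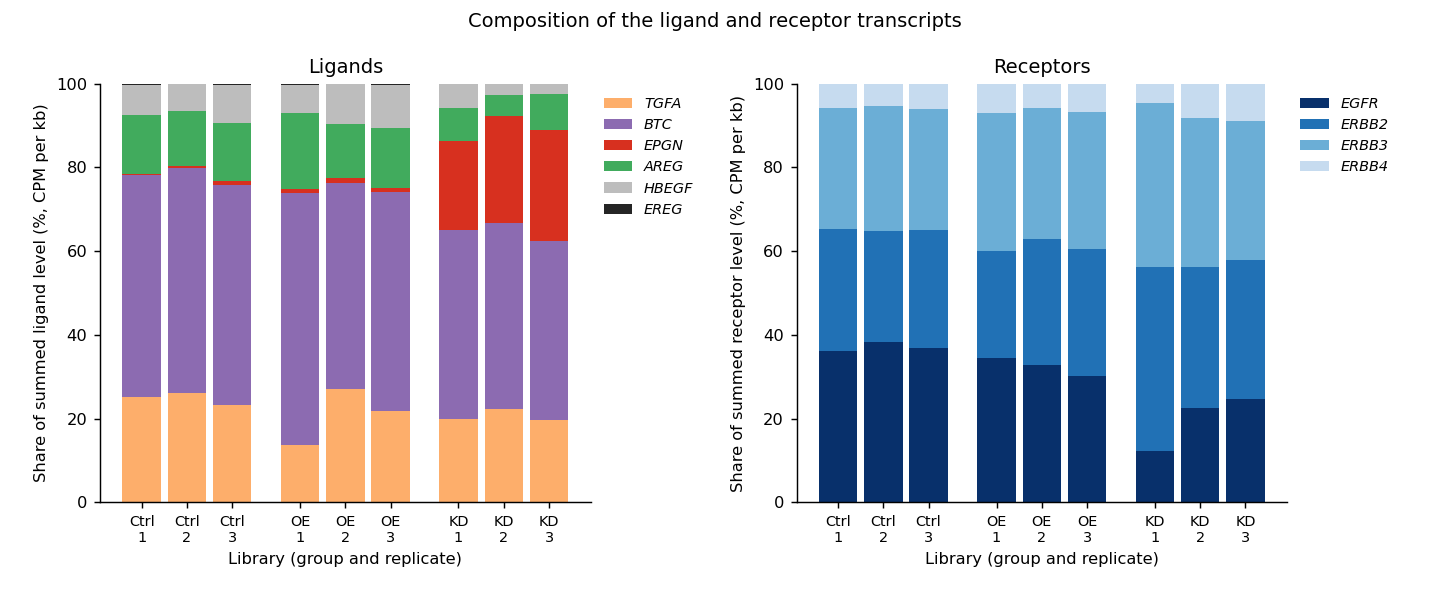
Share (%) of each ligand in the summed ligand level, left, and of each receptor in the summed receptor level, right, in CPM per kb of transcript, with 1 bar for each library of Control (Ctrl), CTCFL-OE (OE) and CTCFL-KD (KD). *EPGN* takes between 21.3% and 26.5% of the ligand level in the CTCFL-KD libraries and at most 1.28% in the others.

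On chromosome 4 the change of *EPGN* was larger than that of each neighbour tested, a difference between genes that has no test here. The start of *EREG* lies 56.7 kb from that of *EPGN* and *EREG* stayed at or under 8 counts in every library. *AREG* begins 137 kb away, with the log2 fold change of 0.99 given above, and *BTC* extends from 436 to 486 kb, with 1.64. *MTHFD2L*, a gene of mitochondrial folate metabolism that ends 5.37 kb before *EPGN*, had 11.1 ± 0.315 CPM in Control and 9.95 ± 0.757 in CTCFL-KD (log2 fold change -0.15, SE 0.16, adjusted p = 0.467). *PARM1*, a mucin-like gene 139 kb beyond *BTC*, rose from 3.23 ± 0.435 to 9.86 ± 1.92 CPM (log2 fold change 1.62, SE 0.29, adjusted p = 0.00157). In CTCFL-OE the log2 fold changes of *MTHFD2L* and *PARM1* were -0.14 (adjusted p = 0.668) and 0.40 (adjusted p = 0.497). A pair of long noncoding RNA genes between *EREG* and *BTC* had at most 7 counts summed over the libraries of a group.

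**Figure D4:**
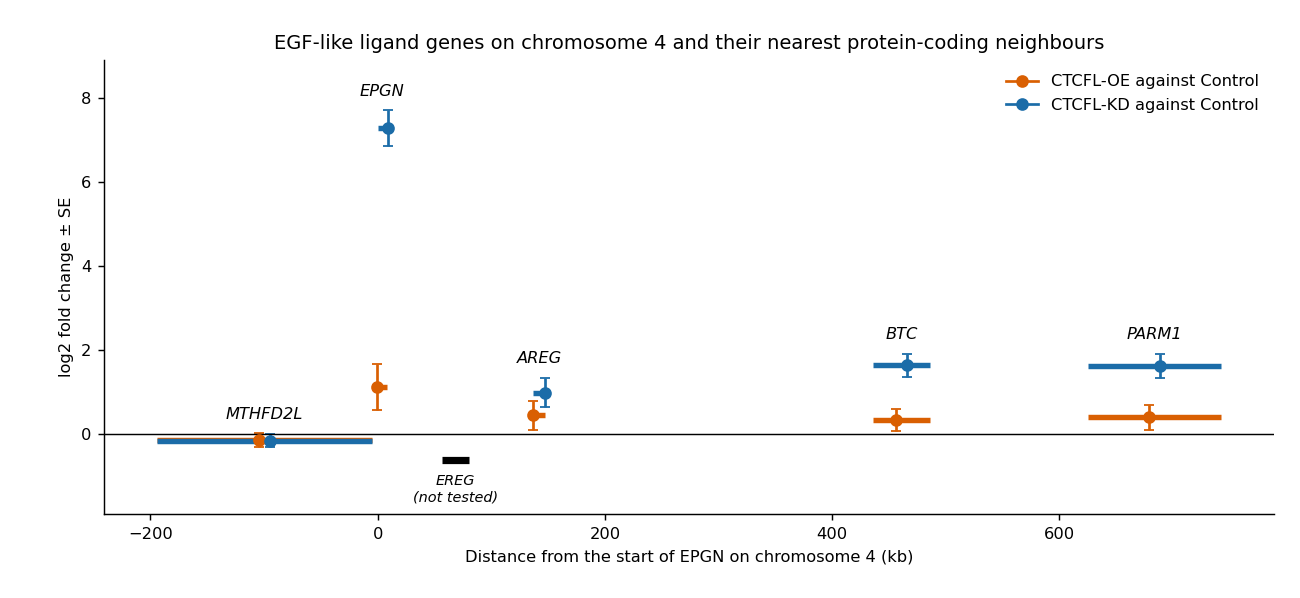
Log2 fold change ± SE (vertical axis) in CTCFL-OE and CTCFL-KD against Control for *EPGN*, *AREG*, *BTC* and the nearest protein-coding genes on either side, by distance in kb from the start of *EPGN*. Horizontal bars span each gene, and *EREG* is marked in black because it was not tested. *EPGN* stands at 7.27 in CTCFL-KD, while *MTHFD2L* lies at -0.15 and *PARM1* at 1.62.

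The pathway around the members was described with 61 further genes in 5 lists, of which 59 were tested. In CTCFL-KD, 10 of them were higher and 20 were lower past the adjusted p, and 21.4% and 16.8% of all genes tested were higher and lower. DEGs numbered 4 higher and 11 lower, beside 15.3% and 7.94% of all genes tested. In CTCFL-OE, 4 of the 59 were DEGs, 1 higher and 3 lower, and 2.07% of all genes tested were DEGs. That count of 4 was 0 without Control 3, 1 without Control 1, Control 2 or CTCFL-OE 2, and 2 without CTCFL-OE 1. DEGs over all genes tested also moved, to 0.24% without Control 3, 0.245%, 0.332% and 0.431% without Control 1, Control 2 and CTCFL-OE 2, and 6.45% without CTCFL-OE 1. In the direct comparison of CTCFL-KD with CTCFL-OE, 3 were DEGs with higher and 5 with lower levels. Over all genes tested, 10.6% were DEGs with higher and 6.42% with lower levels.

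The other ligands of the family include the neuregulins. The 4 tested had a median log2 fold change of -0.29 in CTCFL-KD. Past the adjusted p, 1 of them was lower, beside 16.8% of all genes tested. This was *NRG1*, a neuregulin that binds ERBB3 and ERBB4, which fell from 14.8 ± 1.4 CPM in Control to 5.7 ± 0.0969 in CTCFL-KD (log2 fold change -1.38, SE 0.17, adjusted p = 0.000171). *NRG4*, a ligand of ERBB4, rose in CTCFL-OE from 1.05 ± 0.136 to 2.18 ± 0.439 CPM (log2 fold change 1.06, SE 0.27, adjusted p = 0.0833).

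Of the 8 genes for shedding of ligands, 3 were higher and 1 was lower in CTCFL-KD, beside 21.4% and 16.8% of all genes tested. The median log2 fold change of the 8 was 0.13. *ADAM12*, a metalloprotease that can release HB-EGF, fell from 49.0 ± 0.503 CPM to 4.91 ± 1.44 (log2 fold change -3.30, SE 0.24, adjusted p = 7.28e-06). *ADAM15*, a related metalloprotease, rose from 130 ± 6.69 to 278 ± 71.2 CPM (log2 fold change 1.09, SE 0.25, adjusted p = 0.00578). None of the 8 passed in CTCFL-OE, where 3.15% of all genes tested did and the median of the 8 was 0.32.

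Of 13 genes listed as brakes or other regulators of the receptors, 4 were higher and 4 were lower in CTCFL-KD. The shares over all genes tested were 21.4% and 16.8%, and the median of the 13 was -0.33. The leucine-rich repeat gene *LRIG1*, whose product promotes degradation of ERBB receptors, rose from 22.5 ± 0.619 to 136 ± 31.2 CPM (log2 fold change 2.60, SE 0.22, adjusted p = 1.46e-05). Its relatives *LRIG3* and *LRIG2* had log2 fold changes of 1.12 (adjusted p = 0.00578) and 1.04 (adjusted p = 0.00767). *ERRFI1*, encoding the EGFR kinase inhibitor MIG6, fell from 101 ± 1.92 to 44.3 ± 17.0 CPM (log2 fold change -1.19, SE 0.25, adjusted p = 0.00395). *UBASH3B*, encoding a CBL-binding phosphatase, had a log2 fold change of -1.03 (adjusted p = 0.00701). In CTCFL-OE none of the 13 passed, beside 3.15% of all genes tested, and the median of the 13 was -0.11.

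Of the 18 adaptors and kinases between the receptors and ERK, 1 was higher and 5 were lower in CTCFL-KD. The shares over all genes tested were 21.4% and 16.8%, and the median of the 18 was -0.17. *PTPN11*, encoding the phosphatase SHP2, fell from 319 ± 17.1 to 136 ± 54.6 CPM (log2 fold change -1.23, SE 0.28, adjusted p = 0.0064), and *NRAS*, a RAS GTPase, fell from 148 ± 9.63 to 70.9 ± 9.72 CPM (log2 fold change -1.06, SE 0.21, adjusted p = 0.0025). None of the 18 passed in CTCFL-OE, where 3.15% of all genes tested did and the median of the 18 was -0.25.

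The last list held genes that ERK activity is known to induce. Of the 16 tested, 9 were lower and 2 were higher in CTCFL-KD, beside 16.8% and 21.4% of all genes tested. The median log2 fold change was -0.80 over the 16 and 0.0769 over all genes tested. *FOSL1*, an AP-1 subunit, fell from 11.6 ± 1.64 CPM to 0.748 ± 0.214 (log2 fold change -3.99, SE 0.35, adjusted p = 2.08e-05). *IER3*, an immediate early gene, fell from 57.7 ± 1.68 to 12.2 ± 1.8 CPM (log2 fold change -2.25, adjusted p = 0.000142), and *ETV4*, an ETS transcription factor, from 41.6 ± 1.84 to 13 ± 5.01 CPM (log2 fold change -1.69, adjusted p = 0.000388). The ERK phosphatase genes *DUSP4* and *DUSP6* had log2 fold changes of -1.35 (adjusted p = 0.000841) and -1.15 (adjusted p = 0.0129), and *DUSP6* was named after its value was seen.

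In CTCFL-OE, 207 of all 17794 genes tested were lower past the adjusted p and 354 were higher. Of the 16 genes of this list, 3 were lower and none was higher, with a median of -0.41. These were *DUSP4*, which fell from 8.91 ± 1.2 to 3.36 ± 0.663 CPM (log2 fold change -1.41, adjusted p = 0.0148), *ETV4*, which fell to 19.6 ± 0.759 CPM (log2 fold change -1.09, adjusted p = 0.0547), and *IER3*, which fell to 27.9 ± 11.5 CPM (log2 fold change -1.05, adjusted p = 0.0795). As given above, no pathway gene was a DEG in CTCFL-OE without Control 3. Compared directly, *DUSP4* differed by 0.06 between CTCFL-KD and CTCFL-OE (SE 0.23, adjusted p = 0.867), whereas *IER3* was lower in CTCFL-KD by a log2 difference of -1.20 (adjusted p = 0.00709).

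**Figure D5:**
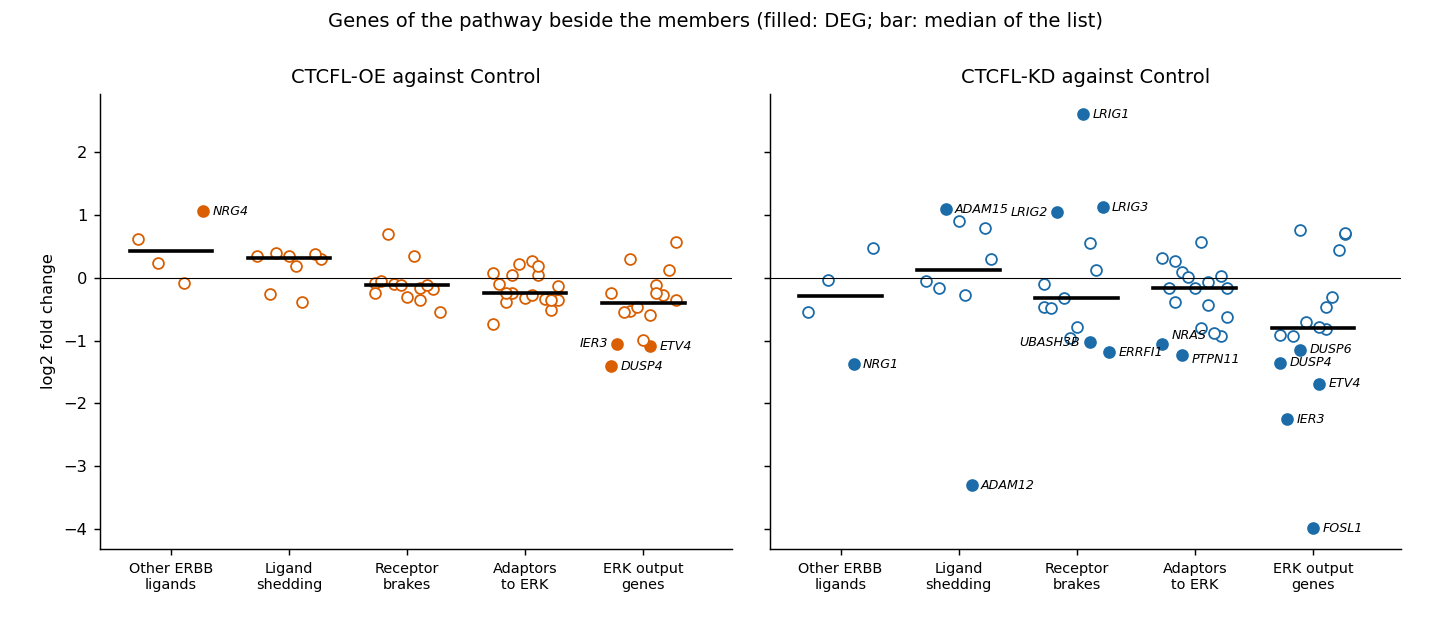
Log2 fold change (vertical axis) of each pathway gene tested, by list, in CTCFL-OE and CTCFL-KD against Control. Filled and named points are DEGs and black bars are medians. The median of the ERK output genes is -0.41 in CTCFL-OE and -0.80 in CTCFL-KD, and *LRIG1* at 2.60 and *FOSL1* at -3.99 are the extremes of the right panel.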

How the data were processed

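The authors trimmed the reads of stranded mRNA libraries and used STAR for alignment to GRCh38 and featureCounts for counting per gene. The deposited values are these raw counts per gene, without normalization. The submitters' processing notes name Trimmomatic, kallisto and featureCounts. The strand setting, the annotation release and the handling of multiply aligned reads are not given in the sources used here. Symbols, positions and transcript lengths were taken from GENCODE release 44 (GRCh38). It named 60419 of 60660 identifiers. At least 1 read was counted for 37834 genes.

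The tests were run in edgeR 4.0.16 (R 4.3.3). Genes were kept by filterByExpr (17794 genes), scaled by TMM, and fitted by a robust quasi-likelihood model of condition alone in all 9 libraries. Adjusted p-values are Benjamini-Hochberg values over all genes tested, with a threshold of 0.1 for CTCFL-OE and 0.05 for CTCFL-KD against Control, as in the study's methods, and of 0.05 for CTCFL-KD against CTCFL-OE, chosen here. DEGs also had a log2 fold change beyond 1. CPM used TMM-scaled library sizes, and levels between genes were compared per kb of the canonical transcript. Correlations used log2 CPM with a prior count of 2. Tables and figures were made with Python 3.11.15, pandas 2.3.3, numpy 2.4.6, scipy 1.17.1 and matplotlib 3.10.9.

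Same-numbered Control and CTCFL-KD libraries deviated together from their group means (r = 0.253, 0.151 and 0.172 over 15357 genes), so their numbers were treated as paired from the data and a blocked fit on these numbers was made. With the length and GC trends removed the values were 0.112, 0.12 and 0.0835. For CTCFL-OE and Control these values were -0.0307, 0.187 and -0.0471, and for CTCFL-KD and CTCFL-OE 0.0131, 0.0818 and 0.0123. The alternatives were DESeq2 1.42.0, fits of the groups compared only, RLE scaling, other low-count filters, offsets for length and GC trends, and leaving out each library.

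The members and gene lists were chosen with earlier results of these data known. The text names all members, *CTCFL*, up to 3 DEGs at either end of each pathway list in each comparison with Control, the genes most like *EGFR* and *AREG*, and the genes that overlap or neighbour members.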

Additional observations from a re-analysis of the deposited data

How the results depend on the processing

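Over all alternatives, *EPGN*, *TGFA*, *BTC*, *ERBB2*, *ERBB3* and *ERBB4* kept their direction and their call in CTCFL-KD against Control, with log2 fold changes of 6.92 to 7.57, 1.46 to 1.87, 1.44 to 1.90, 1.19 to 1.45, 1.25 to 1.36 and 1.17 to 1.66. At least 10 counts in every library removed *EPGN* from the test. Leaving out 1 library each, 6 to 8 members passed and 6 to 7 were DEGs in CTCFL-KD, 4 to 6 and 3 to 4 in CTCFL-KD against CTCFL-OE, and 0 to 2 and 0 to 0 in CTCFL-OE. Over all genes tested, these fits called 25.8% to 49.9%, 17.3% to 39.7% and 0.24% to 15.1%, and DEGs were 19.9% to 24.7%, 13.9% to 18.6% and 0.24% to 6.45%. DEGs among the pathway genes then numbered 11 to 19, 7 to 9 and 0 to 3, where CTCFL-OE had 4 with all libraries, 1 without Control 1 or Control 2, 0 without Control 3, 2 without CTCFL-OE 1 and 1 without CTCFL-OE 2. In CTCFL-OE, 1 member passed with DESeq2 on all libraries, and 2 did in edgeR or DESeq2 on the groups compared only, with length and GC offsets, and with these offsets and the replicate block, where 1 was a DEG (*EPGN*, log2 fold change 1.34, adjusted p = 0.0502). In these fits 7.62%, 20.2%, 22%, 11.4% and 11.2% of all genes tested passed, in the order given, and *EPGN* had no adjusted p with only CTCFL-OE and Control. The median of all genes moved from -0.0103 to 0.106 with DESeq2 on CTCFL-OE and Control only.

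Values near 0 changed sign. *TGFA* in CTCFL-OE was -0.045 with the replicate block and ranged from -0.306 to 0.283 when 1 library was left out. *EGFR* in CTCFL-KD was -0.0084 with length and GC offsets, -0.023 with the offsets and the block, and from -0.0619 without CTCFL-KD 3 to 0.449 without CTCFL-KD 1. Against CTCFL-OE, *EGFR* ranged from -0.274 to 0.230 and *HBEGF* from -0.0257 to 0.638 when 1 library was left out. The cause was not tested. In CTCFL-KD against Control, the replicate block changed no call of a member: 7 passed, and *EPGN* had a log2 fold change of 7.26 (adjusted p = 1.7e-06). *AREG* lost its call in CTCFL-KD with only the groups compared (adjusted p = 0.0566 in edgeR, 0.0544 in DESeq2), and *HBEGF* gained one in edgeR (0.0396) but not in DESeq2 (0.0584). *ERBB3* lost its call against CTCFL-OE in edgeR on the groups compared (adjusted p = 0.074) and without CTCFL-OE 2 (0.0529). With merged exons as the length, chosen after seeing the data, *EPGN* made up 22.2% of the ligand level in CTCFL-KD, and *EGFR* 42.1% of the receptor level in Control and 23.2% in CTCFL-KD. The order of the leading members and the summed receptor level moved with this length. Low counts limit *EREG*, *EPGN* outside CTCFL-KD, *AREG* and *HBEGF*.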
